A study of Homo sapiens with 9 samples.

Results

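The 10 genes of arginine, urea cycle and polyamine metabolism described here were followed through U87, GSCs and Diff cells. They were chosen by symbol (ASS1, ASL, ARG2, OAT, ODC1, SRM, SMS, SAT1, SLC7A1 and SLC7A2), and all 10 were found among the 60606 genes of the deposited table. ASS1 was put at their head because of its measured level, near 0 TPM in Diff cells and not in the other lines. Its values are therefore given as a description, without a test. The other members were named for their place in the pathway, with earlier results of these data known.

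U87 is an established human glioblastoma line and was used here as wild type, grown in medium with serum. GSCs are glioblastoma stem cells derived from U87, kept in serum-free medium with EGF and bFGF, and made radioresistant by repeated irradiation. Diff cells were differentiated from those irradiated GSCs in serum and grown on from cells picked out of clonal communities. All lines thus share the U87 origin, each line has 3 libraries, and stem cell medium, irradiation, differentiation and clonal selection cannot be told apart as sources of a difference because no line carries one of them alone. RNA was sequenced, and expression is given as TPM, transcripts of a gene per 1000000, in which gene length has been divided out. The depth of a library is not kept in TPM, so precision was judged from how far the 3 libraries of a line lay apart. No pair of libraries held identical values, between 21536 and 22565 genes exceeded 1 TPM, and the mitochondrially encoded genes held 25.9% to 31.8% of TPM. The RNA of the signal recognition particle, RN7SL, held 10.4% to 11.5% in U87 and 6.17% to 9.51% in the other lines. In bulk RNA, fewer cells of a type and less RNA per cell cannot be told apart.

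The labels of the lines were set against marker genes. Of the 5 glioma stem cell markers examined, SOX2 lay at 0.809 to 0.994 TPM in GSCs and at most 0.185 TPM elsewhere, and PROM1, which encodes CD133, at 0.379 to 0.596 TPM in GSCs and at most 0.238 TPM elsewhere. Both were thus highest in GSCs but under 1 TPM in every library. FABP7 lay at 4.38 to 5.82 TPM in GSCs, 2.53 to 3.27 TPM in Diff cells and at most 0.986 TPM in U87. NES, the most abundant of the 5, went the other way, with 31.1 to 35.5 TPM in U87, 21.7 to 23.3 TPM in GSCs and 12.7 to 14.6 TPM in Diff cells, and OLIG2 overlapped between GSCs and U87. Their sum, 35.5 to 39.9 TPM in GSCs, was not higher than the 39.1 to 43.1 TPM of U87. Of the 4 neuronal markers, MAP2 lay at 20.6 to 22.5 TPM in Diff cells and 6.93 to 9.19 TPM in the other lines. TUBB3 lay at 4.55 to 5.82 TPM in Diff cells and overlapped GSCs, at 3.93 to 5.15 TPM, its difference from U87 did not pass (adjusted p = 0.0622, limma), and RBFOX3 was at most 0.164 TPM and overlapped in all lines. DCX, a marker of young neurons, and AQP4, a marker of mature astrocytes, were at or near 0 throughout, and GFAP did not exceed 2.57 TPM. The other astrocytic markers went in opposite directions. GFAP lay at 0.81 to 1.07 TPM in Diff cells, below the 2.0 to 2.57 TPM of U87. S100B lay at 0.257 to 1.06 TPM in Diff cells, above the 0.0798 to 0.14 TPM of U87.

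Arginine is a building block of protein and the source of ornithine, urea, nitric oxide, creatine and the polyamines. Argininosuccinate synthase (ASS1) and argininosuccinate lyase (ASL) make it from citrulline and aspartate, and tumour cells that lack ASS1 are known to depend on arginine from outside. Arginases split arginine into urea and ornithine, ornithine decarboxylase turns ornithine into putrescine, and spermidine and spermine follow by transfer of aminopropyl groups.

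ASS1 lies on the plus strand at chr9:130444929-130501274 (GRCh38, GENCODE 29). The members called different between Diff cells and GSCs, SLC7A1 at chr13:29509410-29595688 on the minus strand and SAT1 at chrX:23783173-23786226 on the plus strand, are shown with it. The stretches printed are the 200 bases before the annotated start of each gene, 5′ to 3′ on the gene's own strand, taken from the RefSeq promoter table for GRCh38.p14. Capitals mark the 6-letter motifs CACGTG (the E-box) and GGGCGG (the GC box), searched on both strands, so that CCGCCC is a GC box read on the other strand. Neighbouring GC boxes can overlap.
ASS1, chr9:130444729-130444928, plus strand: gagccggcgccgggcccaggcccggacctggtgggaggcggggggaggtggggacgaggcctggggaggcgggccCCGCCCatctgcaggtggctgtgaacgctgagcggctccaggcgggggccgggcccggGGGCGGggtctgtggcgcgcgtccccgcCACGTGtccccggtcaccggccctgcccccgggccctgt
SLC7A1, chr13:29595689-29595888, minus strand: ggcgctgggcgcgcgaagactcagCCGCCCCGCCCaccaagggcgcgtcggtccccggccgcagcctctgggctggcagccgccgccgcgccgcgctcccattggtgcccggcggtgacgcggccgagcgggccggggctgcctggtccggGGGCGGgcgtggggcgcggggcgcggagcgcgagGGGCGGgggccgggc
SAT1, chrX:23782973-23783172, plus strand: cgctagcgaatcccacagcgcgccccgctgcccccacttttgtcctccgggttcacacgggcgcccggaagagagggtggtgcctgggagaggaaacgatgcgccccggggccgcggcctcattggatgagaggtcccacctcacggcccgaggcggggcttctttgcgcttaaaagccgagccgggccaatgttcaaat

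The ASS1 stretch printed held 1 E-box, 34 to 39 bases before the annotated start, and 2 GC boxes. RefSeq lists a further ASS1 start, and the stretch before that one, chr9:130444507-130444706, held 2 GC boxes and no E-box. The SLC7A1 stretch held 4 GC boxes and the SAT1 stretch none of either motif. Over the 250 bases before the start, CACGTG was found in 6.34% and GGGCGG in 42.6% of the 35116 promoters of the table. Among the other members, SRM and 1 start of ODC1 also held an E-box in that window. Neither TATAAA (10.7% of promoters) nor TGATGCAA (0.772%) was found in the windows of the 9 members examined. These windows held 21 to 43 CG dinucleotides, against a median of 11 over all promoters. These matches describe letters only.

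Entry of arginine into the cell was represented by SLC7A1 and SLC7A2, transporters of cationic amino acids. SLC7A1, the transporter used by most dividing cells, measured 199, 188 and 200 TPM in U87, 43.3, 45.4 and 42.6 TPM in GSCs, and 96.1, 98.4 and 105 TPM in Diff cells. The lines did not overlap: U87 was highest, GSCs lowest and Diff cells between them. In GSCs it fell by 2.14 in log2(TPM + 1) against U87 (SE 0.0524, limma, Benjamini-Hochberg adjusted p = 2.18e-08), which is a 4.47-fold lower mean TPM. Diff cells lay 1.17 above GSCs (adjusted p = 1.89e-06, limma). Against U87, Diff cells fell by 0.97 (SE 0.0524, adjusted p = 1.98e-06, limma), just short of the difference of 1 that was also asked of a call. Without Diff replicate 3, its highest Diff library, the difference passed that limit as well.

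SLC7A2, a related transporter known from liver and macrophages, measured at most 0.0547 TPM in any of the 9 libraries. It was the only member under the filter of a mean of 1 TPM, so 9 of the 10 members were tested or described further.

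ASS1, which condenses citrulline with aspartate, measured 48.8, 41.8 and 49.6 TPM in U87 and 58.7, 63.3 and 47.5 TPM in GSCs. In Diff cells it measured 0.077, 0.226 and 0.274 TPM. U87 and GSCs overlapped, and every Diff library lay far below all others. The mean was 46.8 ± 4.31 TPM in U87, 56.5 ± 8.1 TPM in GSCs and 0.192 ± 0.103 TPM in Diff cells (SD, n = 3 each), a ratio of 243 between U87 and Diff cells and of 294 between GSCs and Diff cells. Because so low a level rests on few reads of unknown number, these ratios are imprecise. On the log2(TPM + 1) scale the differences were -5.32 and -5.59, and GSCs lay 0.26 above U87. With the smaller pseudocounts of 0.5 and 0.1 in place of 1, the difference between Diff cells and U87 was -6.10 and -7.39.

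In U87 88.9% and in GSCs 91.1% of tested genes had a lower mean TPM than ASS1, whereas in Diff cells 0.79% had. Genes low in all lines were not tested, so a tested gene near 0 TPM in Diff cells had to rank low there. Among protein-coding genes with a mean over 1 TPM, ASS1 alone was under 1 TPM in every Diff library and over 10 TPM in each of the other 6. These limits were chosen after the values of ASS1 were seen. TCAF2 came close to them, with 22.2 to 22.9 TPM in U87 and 10.4 to 11.7 TPM in GSCs. In Diff cells it measured 0.743 to 1.14 TPM, on both sides of the limit of 1 TPM, with a mean of 0.976 TPM. The 12181 other protein-coding genes were also ranked by how closely their centred log2(TPM + 1) profile over the 9 libraries followed that of ASS1. The closest was STC1, with a mean absolute difference of 0.91, followed by DEPP1 (0.94), CA9 (1.03), NDRG1 (1.04) and TCAF2 (1.05). STC1, which encodes a secreted glycoprotein, averaged 626 TPM in U87, 269 TPM in GSCs and 32.9 TPM in Diff cells. CA9, a carbonic anhydrase of the cell surface, averaged 417, 112 and 12.2 TPM in that order. Unlike ASS1, these genes were lower in GSCs than in U87 as well, so that none of the 5 matched the step of ASS1 closely.

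The table also lists processed copies of the members, which can take reads from the parent gene. Of 19 such copies, 14 belong to ASS1, and 9 of those were at 0 in all libraries. Of the copies of ASS1, ASS1P2 alone exceeded 1 TPM on average. It measured 1.34 to 3.65 TPM over the 9 libraries, with 1.34 to 2.28 TPM in Diff cells, so its level there was above that of ASS1 itself. ASLP1, a copy of ASL, measured 2.19 to 6.61 TPM and SRMP2, a copy of SRM, 5.2 to 9.26 TPM, and how reads were shared between a copy and its parent is not given in the sources used here.

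ASS1 was also set beside its neighbours on chromosome 9, the 5 tested protein-coding genes on either side. Their median difference between Diff cells and U87 was -0.13, with a range of -1.75 to 0.42, and between Diff cells and GSCs 0.18, with a range of -0.26 to 1.73. Between GSCs and U87 it was -0.052, with a range of -3.48 to 0.13. The nearest gene on one side, NCS1, lay 0.42 above U87 in Diff cells, and the nearest on the other, FUBP3, 0.03 above. Neither of these nearest genes was low in Diff cells.

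ASL, which releases arginine and fumarate from the product of ASS1, lies at chr7:66075798-66093558. It measured 8.41, 8.1 and 7.64 TPM in U87, 6.81, 9.26 and 6.24 TPM in GSCs, and 8.26, 9.35 and 8.89 TPM in Diff cells. The lines overlapped in all 3 comparisons, and no difference passed the test. The 95% confidence interval of the difference in log2(TPM + 1) ran from -0.18 to 0.42 for Diff cells against U87 (adjusted p = 0.52, limma). It ran from -0.42 to 0.19 for GSCs against U87 (adjusted p = 0.502) and from -0.066 to 0.54 for Diff cells against GSCs (adjusted p = 0.207). The last passed at an adjusted p of 0.0208 without GSCs replicate 2, the highest ASL value of its line. The 10 genes around ASL were higher than U87 in both other lines, with medians of 0.81 in Diff cells and 0.70 in GSCs, whereas ASL lay at 0.12 and -0.12. Of its exon bases, 17.6% are shared with AC068533.4, a gene on the same strand. How reads from these bases were counted, or whether they were left out, is not given in the sources used here.

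ARG2, the mitochondrial arginase, lies at chr14:67619798-67651720. It measured 17.6, 15.1 and 18.7 TPM in U87, 3.18, 3.78 and 4.37 TPM in GSCs, and 5.95, 3.71 and 3.98 TPM in Diff cells. U87 lay above all other libraries, and GSCs and Diff cells overlapped. ARG2 fell by 1.73 in Diff cells against U87 (SE 0.169, adjusted p = 6.18e-05, limma), 3.77-fold in mean TPM. In GSCs it fell by 1.93 against U87 (adjusted p = 2.23e-05), 4.54-fold in mean TPM. Diff cells and GSCs differed by 0.20, with an interval of -0.18 to 0.59 (adjusted p = 0.401). Of the exon bases of ARG2, 37.4% lie opposite exons of VTI1B. The libraries are directional, but whether the counting used strand is not given in the sources used here. VTI1B measured 33.6 to 35.4 TPM in U87, 22.4 to 30.5 TPM in GSCs and 28.7 to 32.3 TPM in Diff cells, and its part in the ARG2 values was not tested.

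OAT, which converts ornithine into a precursor of glutamate and proline, lies at chr10:124397303-124418976. It measured 37.0, 40.5 and 39.5 TPM in U87, 79.9, 75.0 and 98.3 TPM in GSCs, and 72.1, 72.9 and 69.6 TPM in Diff cells. Both derived lines lay above U87, and Diff cells lay just below GSCs. OAT rose by 1.09 in GSCs (SE 0.0935, adjusted p = 1.97e-05, limma) and by 0.86 in Diff cells (adjusted p = 0.000116). Without GSCs replicate 3, its highest library, the rise in GSCs was 0.97 and missed the difference of 1. Between Diff cells and GSCs the difference was -0.23 (adjusted p = 0.095), which passed at 0.0341 without GSCs replicate 2.

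ARG2 makes ornithine and OAT consumes it, and the levels of both differed from U87 in opposite directions. The ratio of OAT to ARG2 TPM within a library was 2.3 ± 0.327 in U87, 22.5 ± 2.64 in GSCs and 16.4 ± 3.87 in Diff cells (SD, n = 3 each). The U87 libraries lay at 2.1 to 2.67, and the lowest of the other 6 at 12.1.

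ODC1, the decarboxylase that opens polyamine synthesis, lies at chr2:10439968-10448504. It measured 52.2, 52.8 and 47.4 TPM in U87, 62.3, 61.1 and 62.2 TPM in GSCs, and 59.3, 62.2 and 67.1 TPM in Diff cells. Both derived lines lay above U87 and overlapped each other. The rise was small, 0.30 in Diff cells (SE 0.0626, adjusted p = 0.00483, limma) and 0.28 in GSCs (adjusted p = 0.00552). Between Diff cells and GSCs the interval ran from -0.12 to 0.16 (adjusted p = 0.823).

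SRM, spermidine synthase, lies at chr1:11054584-11060024. It measured 390, 410 and 395 TPM in U87, 366, 357 and 257 TPM in GSCs, and 455, 479 and 478 TPM in Diff cells. The lines did not overlap, with Diff cells highest and GSCs lowest, and GSCs replicate 3 stood well below its fellows. SRM lay 0.54 higher in Diff cells than in GSCs (SE 0.12, adjusted p = 0.00805, limma), and 0.38 higher without that library. Neither comparison with U87 passed, at 0.24 for Diff cells (adjusted p = 0.15) and -0.30 for GSCs (adjusted p = 0.0658). For Diff cells the comparison passed without GSCs replicate 3 (adjusted p = 0.0015) and with only the libraries of Diff cells and U87 in the fit (adjusted p = 0.00321). For GSCs it passed without any one GSCs library, at -0.39 without replicate 1 (adjusted p = 0.033), -0.37 without replicate 2 (adjusted p = 0.0468) and -0.14 without replicate 3 (adjusted p = 0.0266), and at -0.35 with TPM rescaled without mitochondrial and RN7SL genes (adjusted p = 0.0396).

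SMS, spermine synthase, lies at chrX:21940573-21994835. It measured 807, 807 and 738 TPM in U87, 405, 392 and 440 TPM in GSCs, and 421, 398 and 415 TPM in Diff cells. U87 lay above the other lines, which overlapped. SMS fell by 0.93 in Diff cells (SE 0.0612, adjusted p = 5.91e-06, limma) and also by 0.93 in GSCs (adjusted p = 4.09e-06), 1.91-fold and 1.9-fold in mean TPM. Between Diff cells and GSCs the interval ran from -0.14 to 0.14 (adjusted p = 0.983). The ratio of SRM to SMS TPM was 0.509 ± 0.0264 in U87, 0.8 ± 0.186 in GSCs and 1.15 ± 0.0626 in Diff cells. The 3 lines did not overlap in this ratio, although GSCs replicate 3, at 0.585, came close to the highest U87 library, at 0.536.

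SAT1, the acetyltransferase that marks spermidine and spermine for export or breakdown, measured 18.4, 19.0 and 16.6 TPM in U87, 71.4, 64.6 and 82.0 TPM in GSCs, and 28.4, 28.3 and 23.3 TPM in Diff cells. GSCs were highest, U87 lowest and Diff cells between them, without overlap. SAT1 rose by 1.95 in GSCs against U87 (SE 0.109, adjusted p = 1.46e-06, limma), 4.04-fold in mean TPM. Diff cells lay at -1.41 against GSCs (adjusted p = 2.79e-05) and 0.54 above U87 (adjusted p = 0.00418). The ratio of SAT1 to ODC1 TPM was 0.354 ± 0.00509 in U87, 1.17 ± 0.132 in GSCs and 0.427 ± 0.0703 in Diff cells. It compares the transcripts of these genes only, and polyamine breakdown and synthesis were not measured. GSCs stood apart in this ratio, and U87 and Diff cells overlapped, since Diff replicate 3 measured 0.347.

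**Figure D1:**
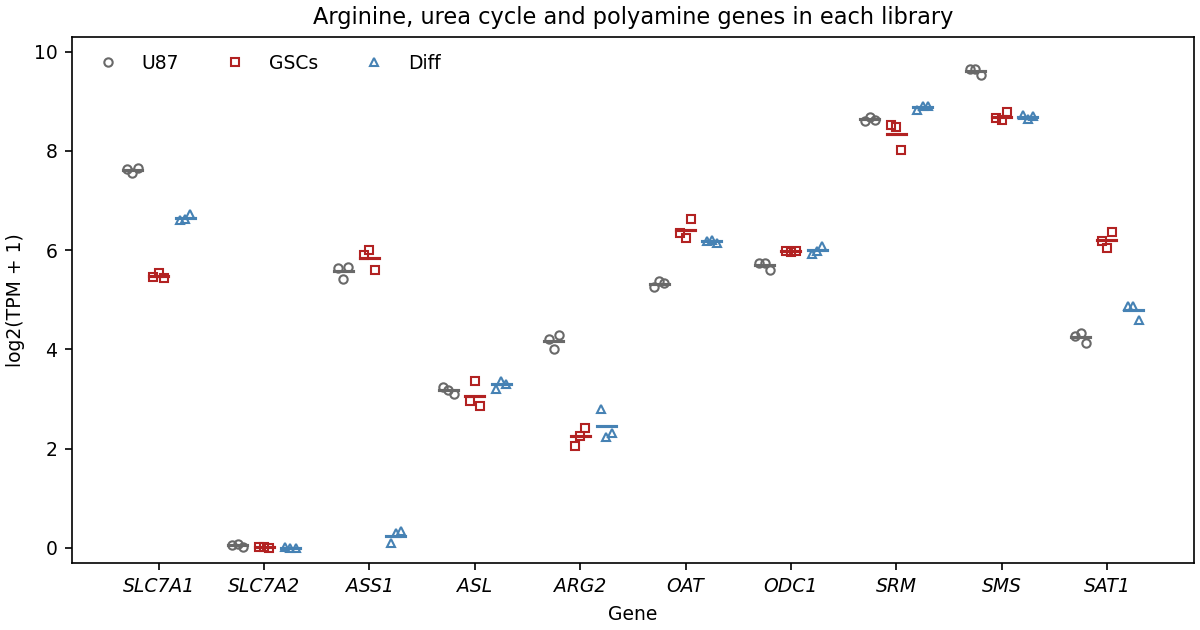
log2(TPM + 1) of the 10 members (horizontal axis) in each library, with circles for U87, squares for GSCs and triangles for Diff cells, and bars for the mean of 3. ASS1 sits near 0 in the 3 Diff libraries, SLC7A1 and SAT1 separate the 3 lines in opposite order, and SLC7A2 is at 0 or nearly so everywhere.

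The order of the members by mean TPM also differed between the lines. SMS led in U87 at 784 TPM, above 99.7% of tested genes, followed by SRM at 398 TPM, SLC7A1 at 196 TPM, ODC1 at 50.8 TPM and ASS1 at 46.8 TPM. ODC1 and ASS1 overlapped there, as did SAT1 and ARG2 further down. In GSCs SMS (412 TPM) and SRM (327 TPM) led again, OAT and SAT1 followed at 84.4 and 72.7 TPM and overlapped, ODC1 and ASS1 overlapped below them, and SLC7A1 had dropped to the seventh place at 43.8 TPM. In Diff cells SRM led at 471 TPM over SMS at 411 TPM without overlap, no other neighbouring members overlapped, and ASS1 was the ninth.

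Counted over the 8 tested members without ASS1, the share called was read against that of all tested genes. A member was called when its adjusted p was under 0.05 and its difference over 1. In Diff cells against U87, 1 of 8 was called, ARG2, where 12.3% of all tested genes were called, 5.92% higher and 6.36% lower. By adjusted p alone, 6 of 8 passed (OAT, ODC1 and SAT1 higher; ARG2, SMS and SLC7A1 lower) against 39.4% of all tested genes, 18.9% higher and 20.5% lower. In GSCs against U87, 4 of 8 were called (SAT1 and OAT higher, SLC7A1 and ARG2 lower) against 17.1% of tested genes, 9.52% higher and 7.53% lower. By adjusted p alone the same comparison gave 6 of 8, 3 higher and 3 lower, against 48.6%, 25.3% higher and 23.3% lower. In Diff cells against GSCs, 2 of 8 were called (SLC7A1 higher, SAT1 lower) against 8.01% of tested genes, 2.66% higher and 5.36% lower. By adjusted p alone 3 of 8 passed there, with SRM the third, against 34.8%, 15.0% higher and 19.8% lower. The ranges of the libraries did not overlap for 7, 7 and 4 of the 8 members in these comparisons, against 55.2%, 55.8% and 46.7% of tested genes. The median difference of the 8 was 0.18, -0.21 and 0.11, beside -0.036, 0.017 and -0.056 over all tested genes. The 3 comparisons share libraries, so their counts do not add up as separate evidence.

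**Figure D2:**
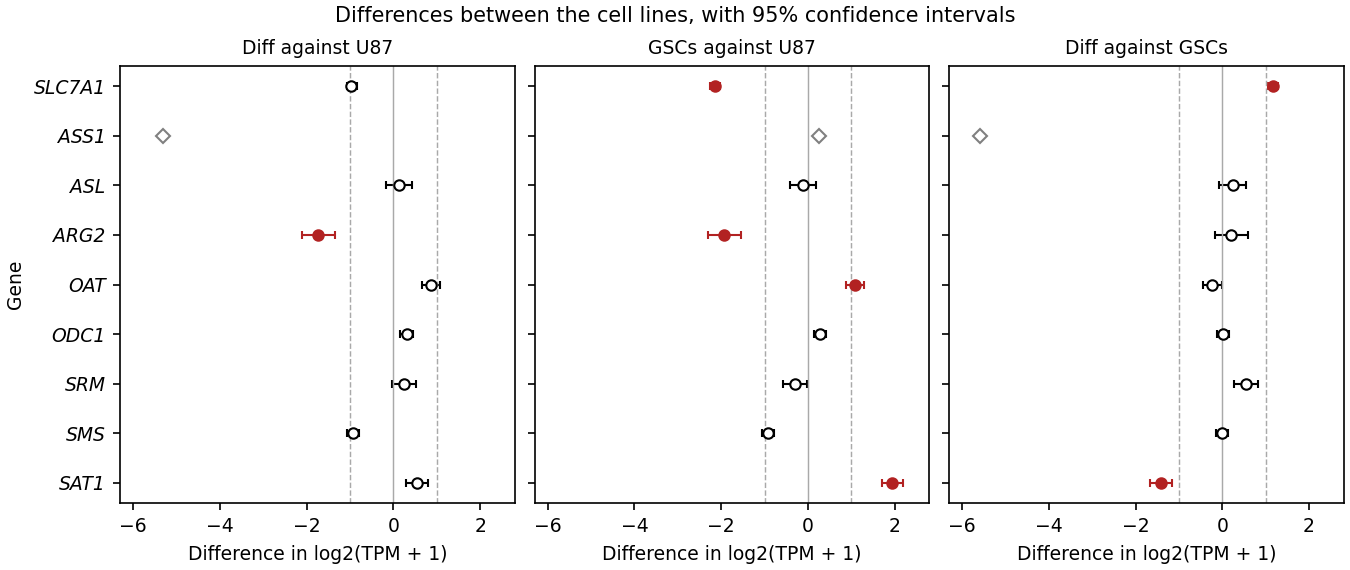
Difference in log2(TPM + 1) of 9 members (rows) in the 3 comparisons, with 95% confidence intervals from limma. Filled red points passed an adjusted p of 0.05 and the dashed lines at -1 and 1, and grey diamonds show ASS1, which was not tested. ARG2 is low in both comparisons with U87, and SLC7A1 and SAT1 change sides between the comparisons.

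The members were set in their pathways with 61 further genes in 10 lists, 50 of which passed the filter. In Diff cells against U87, 4 of the 50 were called, 3 higher and 1 lower, where 12.3% of all tested genes were called. In GSCs against U87, 7 were called, 4 higher and 3 lower, against 17.1%, and in Diff cells against GSCs 1 was called, against 8.01%. By adjusted p alone 24, 30 and 25 passed, against 39.4%, 48.6% and 34.8% of all tested genes, and the medians were 0.11, -0.011 and 0.088. The genes called in both comparisons with U87 include NOS3 and ASNS, which passed the filter only through the lines where they are high.

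Among the other urea cycle genes, OTC and ARG1 failed the filter. CPS1, which loads ammonia into the cycle, measured 12.7 to 19.1 TPM over the 9 libraries. Neither of its comparisons with U87 passed, and Diff cells lay at -0.31 against GSCs (adjusted p = 0.0401, limma), which was lost under most alternatives. OTC, which joins its product to ornithine, measured at most 0.179 TPM and ARG1, the arginase of liver, at most 1.36 TPM. ALB, a defining gene of liver cells, did not exceed 0.168 TPM. Of the transport list, SLC25A29, a mitochondrial carrier of basic amino acids, measured 5.87 to 6.77 TPM in U87, 17.1 to 22.6 TPM in GSCs and 12.7 to 14.1 TPM in Diff cells. It rose by 1.57 in GSCs (adjusted p = 7.08e-06, limma) and by 1.01 in Diff cells (adjusted p = 0.000141). The call in Diff cells was lost without U87 replicate 3, at 0.97, and without Diff replicate 2 or 3, at 0.99 each.

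Among the genes that use arginine in other ways, NOS3, the endothelial nitric oxide synthase, showed the largest differences of the 50. It measured 0.127, 0.0729 and 0.0213 TPM in U87, 42.2, 49.8 and 37.5 TPM in GSCs, and 5.37, 5.18 and 5.95 TPM in Diff cells. The lines lay far apart, with GSCs highest and U87 near 0, and NOS3 passed the filter only through the derived lines. NOS3 rose by 5.35 in GSCs (SE 0.122, adjusted p = 1.55e-08, limma) and by 2.60 in Diff cells (adjusted p = 8.96e-07), and Diff cells lay at -2.76 against GSCs (adjusted p = 1.82e-06). With U87 near 0, NOS3 had to be high in a derived line to be tested at all, so its tests against U87 add nothing to its values. Opposite to it lies ATG9B, which covers 13.2% of its exon bases and measured 25.1 to 32.2 TPM in GSCs and at most 0.575 TPM elsewhere. The endothelial markers PECAM1, VWF and CDH5 summed to 16.4 to 18.9 TPM in GSCs, 2.66 to 4.41 TPM in U87 and 4.13 to 5.55 TPM in Diff cells. VWF made up most of that, at 11.0 to 12.0 TPM in GSCs, and CDH5 did not exceed 0.465 TPM in any library. The part of ATG9B and of these markers in the NOS3 values was not tested. SLC6A8, the creatine transporter, rose by 1.46 in GSCs (adjusted p = 4.44e-06), with 61.8 to 78.5 TPM in U87 and 176 to 213 TPM in GSCs.

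Around aspartate, which ASS1 consumes, ASNS, the synthetase that turns aspartate into asparagine, measured 3.39 to 5.82 TPM in U87, 0.204 to 0.481 TPM in GSCs and 0.53 to 0.807 TPM in Diff cells. It fell by 1.83 in Diff cells (adjusted p = 0.000131, limma) and fell by 2.09 in GSCs (adjusted p = 4.25e-05). ASNS passed the filter only through U87, where it is high, so it had to differ and these tests add nothing to its values. CAD, which feeds aspartate into pyrimidines, rose by 1.05 in GSCs (adjusted p = 5.74e-06), from 55.2 to 59.7 TPM in U87 to 108 to 133 TPM, and its call was lost at 0.98 without GSCs replicate 2. FH, which takes up the fumarate that ASL releases, fell by 1.02 in GSCs (adjusted p = 5.19e-05), with 11.7 to 13.9 TPM in U87 and 5.61 to 6.25 TPM in GSCs. Its call was lost at -0.98 without U87 replicate 1, U87 replicate 3 or GSCs replicate 1. All 8 genes of this list passed by adjusted p in GSCs against U87, 3 higher and 5 lower. ASNS, which had to differ, is counted among the 5. Of all tested genes 48.6% passed, 25.3% higher and 23.3% lower. The list is 1 of 10, and over all lists 30 of the 50 genes passed in that comparison. ALDH4A1, which completes the breakdown of proline to glutamate, rose by 1.00 in Diff cells (adjusted p = 0.000516), on the edge of a call, which was lost at 0.91 without U87 replicate 2 and at 0.95 without Diff replicate 2.

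The partners of ODC1, SRM and SMS on the same list did not all behave alike. AMD1, which supplies the aminopropyl groups, measured 29.1 to 44.9 TPM, OAZ1, the antizyme that sends ODC1 to degradation, 148 to 197 TPM, and AZIN1, its inhibitor, 52.5 to 69.9 TPM over the 9 libraries. None of these passed in any comparison, with adjusted p from 0.133 to 0.945, and all their ranges overlapped. AZIN2, another antizyme inhibitor, measured 4.82 to 5.33 TPM in U87, 9.23 to 11.5 TPM in GSCs and 5.3 to 5.8 TPM in Diff cells, and lay 0.95 above U87 in GSCs (adjusted p = 9.73e-05, limma), short of a call. OAZ2, another antizyme, lay at -0.28 in GSCs (adjusted p = 0.00264). Both were named after their values were seen. SMOX, spermine oxidase, fell by 1.01 in GSCs (adjusted p = 0.000204, limma), from 13.8 to 17.1 TPM in U87 to 6.16 to 7.89 TPM. The call was lost without U87 replicate 1, without U87 replicate 3 (-0.94) and without GSCs replicate 3 (-0.91). In Diff cells SMOX measured 12.5 to 15.6 TPM and overlapped U87. GSCs thus held more SAT1 and less SMOX transcript than U87.

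MTAP, which recycles the methylthioadenosine left over from spermidine and spermine synthesis, was at or near 0 in every library, with a highest value of 0.016 TPM. CDKN2A and CDKN2B, which lie beside it on chromosome 9 and were added after these values were seen, measured at most 0.176 and 0.0341 TPM. The low level of MTAP was shared by all 3 lines and so differs from that of ASS1, on the other arm of the same chromosome.

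**Figure D3:**
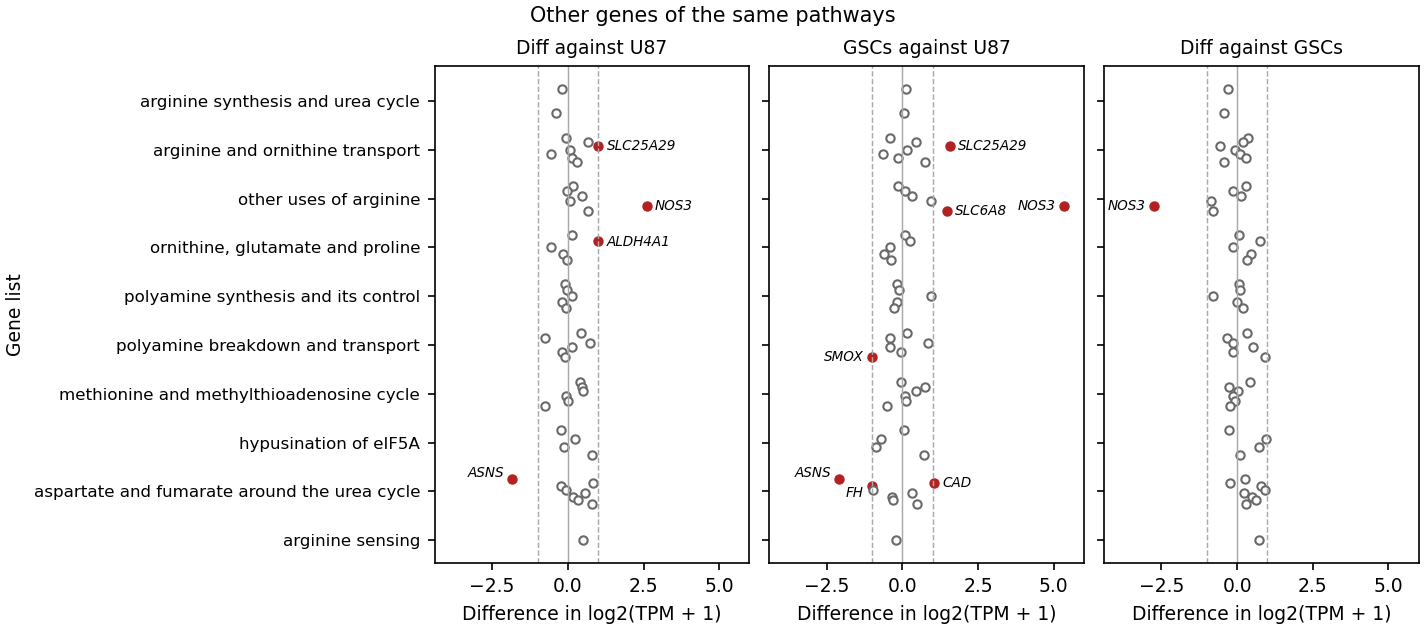
Difference in log2(TPM + 1) (horizontal axis) of the 50 tested genes of the 10 lists (vertical axis) in the 3 comparisons, with called genes filled red and named. NOS3 lies at 2.60, 5.35 and -2.76, and ASNS is the gene farthest to the left in both comparisons with U87.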

How the data were processed

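RNA-seq of 9 human cell line libraries was used. The authors deposited 1 table of log2(TPM + 1), and TPM recovered from it summed to 1000000 in every library. The submitters' processing notes name FastQC 0.11.9, Trimmomatic 0.39, HISAT2 2.2.1, featureCounts 2.0.5, R 4.2.0 and the build GRCh38. The sample labels speak of Magzol, depletion of rRNA and a directional paired-end kit, while the paper's methods speak of Trizol and oligo(dT) beads. The annotation and strand setting of the counting are not given in the sources used here. Depth is unknown, so no counting interval was computed.

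Genes with a mean TPM over 1 (22909 of 60606) entered 1 fit of all 9 libraries in limma 3.58.1 under R 4.3.3, with eBayes and its trend option. P-values were adjusted by Benjamini-Hochberg over all tested genes within each comparison, and a gene was called at an adjusted p under 0.05 and a difference over 1. Nothing in the labels says that replicates were separate cultures, so p-values measure the spread between these libraries only, which may be technical. The test was first checked on simulated data. Differences are on the log2(TPM + 1) scale, which understates changes of genes with low values.

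The members and lists were chosen with earlier results of these data known. Genes named were the 10 members, up to 4 called genes per list and comparison with the largest difference, 9 genes named whatever their values (MTAP, AMD1, SMOX, ARG1, OTC, CPS1, ASNS, OAZ1 and AZIN1), processed copies, neighbours in RefSeq order, the 5 protein-coding genes closest in profile to ASS1, and cell type markers. Coordinates are from GENCODE 29. Summaries and plots were made with Python 3.11.15, pandas 2.3.3 and matplotlib 3.10.9. Alternatives covered the pseudocount, filter, libraries in the fit, trend, scaling, a replicate block and the omission of each library.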

Additional observations from a re-analysis of the deposited data

How the results depend on the processing

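The 8 tested members and the named pathway genes were recomputed under 19 alternatives, 9 of which left out a library. Of 1134 values of these tested genes, 1078 kept their direction and their side of the adjusted p of 0.05. For ASS1, which was not tested, 51 of 57 values moved by less than the spread between libraries and 6 moved by more, all in the same direction as before. With a library left out, the called members numbered 1 to 2 in Diff cells against U87, 3 to 4 in GSCs against U87 and 2 in each case in Diff cells against GSCs. The called genes of the other pathway lists numbered 2 to 4, 5 to 8 and 1 to 2, and those of all genes 2755 to 2811, 3797 to 3980 and 1773 to 1907. With a filter at a mean TPM over 5, 2 pathway genes were called in Diff cells against U87, and 1583, 2254 and 1038 genes overall in the 3 comparisons, because fewer genes were tested. In Diff cells against GSCs, pathway genes called numbered 3 with pseudocounts of 0.1 and 0.5, 3 with quantile normalization, 2 with median-ratio scaling and 4 with TPM rescaled without mitochondrial and RN7SL genes. In that comparison 609 genes were called higher and 1227 lower, and 760 and 1031 with quantile normalization.

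Reversals concerned differences near 0 that had not passed the test. In Diff cells against GSCs, SMS lay at 0.054 with median-ratio scaling and 0.071 with TPM rescaled, and between -0.038 and 0.045 with a library left out. ODC1 ranged from -0.025 to 0.062, AMD1 from -0.071 to 0.23 and OAZ1 from -0.077 to 0.07 with a library left out. OAZ1 lay at 0.0048, 0.046 and 0.063 with quantile normalization, median-ratio scaling and TPM rescaled. AZIN1 in Diff cells against U87 lay at 0.00014, 0.015 and 0.009 under these scalings, and between -0.061 and 0.0037 with a library left out. The cause was not tested. CAD and CPS1 in Diff cells against GSCs lost their adjusted p under most alternatives.

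The replicate numbers did not pair the libraries: deviations of libraries with the same number correlated at -0.091 to 0.09 over 9 pairs. With a replicate block, 1, 4 and 2 members and 4, 7 and 1 pathway genes were called, and the counts over all genes were 2810, 3917 and 1831.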
